A study of Mus musculus with 15 samples.

Results

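The genes described here are the core of bone morphogenetic protein (BMP) signalling: 5 ligands (Bmp2, Bmp4, Bmp5, Bmp6 and Bmp7), 3 receptors (Bmpr1a, Bmpr1b and Bmpr2) and 2 secreted antagonists (Nog and Chrd). They were chosen by name, with earlier results of these data known, and make up 10 of the 53337 genes to which the transcripts of the deposited table were summed. The data are mRNA-seq libraries of dorsal forebrain, the part of the embryonic brain that holds the cortex, from C57BL/6J mouse embryos at embryonic day 18 (E18). Dams received arginine vasopressin (AVP), a hormone that raises blood pressure and is used in pregnant mice to model preeclampsia, or saline, by chronic infusion throughout gestation, and both groups of dams carried the subcutaneous pump. There were 4 libraries from AVP-exposed males, 4 from saline-exposed males, 3 from AVP-exposed females and 4 from saline-exposed females. The labels name 16 samples from 8 litters without saying which sample came from which litter, and the study left out 1 AVP female. Per the study, the libraries of a group came from different litters, so a brother and a sister can share a litter where both sexes enter a fit, and such pairs could not be blocked.

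BMPs are secreted signals of the TGF-β superfamily. A dimer of ligand brings together type I receptors (Bmpr1a, Bmpr1b) and a type II receptor (Bmpr2), which then phosphorylate Smad1, Smad5 and Smad9; these enter the nucleus with Smad4 and switch on targets such as the Id genes. In the forebrain, BMPs pattern the dorsal midline and choroid plexus, and the meninges that wrap the cortex are a known source of several ligands. Noggin (Nog) and chordin (Chrd) bind ligands outside the cell and keep them from their receptors.

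Levels are in TPM, transcript abundance scaled to transcript length and to a fixed total per library, which can be compared between genes. The read depth behind each value is unknown, because the table holds TPM without counts. Markers of the dorsal forebrain were present in every library, with Emx1 at 24.5 to 37.4 TPM, Tbr1 at 86 to 119 TPM and Neurod6 at 471 to 728 TPM. Choroid plexus markers were uneven, with a summed level of 8.45 to 2296 TPM. The library labelled saline male 12 carried the sex-linked transcripts of a female (Xist at 266 TPM, 4 Y-linked genes at a sum of 0.489 TPM, against sums of 102 to 155 TPM in the other males). It was kept under its label, and values without it are given beside the male results.

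The ligands with the clearest values below are Bmp4, Bmp5, Bmp6 and Bmp7, which varied together from library to library, Bmp4 less closely than the others. To show the sequence at which transcription of such co-varying genes begins, the 250 bases before the RefSeq start of Bmp4 (chr14:46390670-46390919, minus strand) and of Bmp5 (chr9:75775115-75775364, plus strand) are printed 5′ to 3′ (build GRCm38.p6), with matches to GGGCGG or CACGTG in capitals.
Bmp4: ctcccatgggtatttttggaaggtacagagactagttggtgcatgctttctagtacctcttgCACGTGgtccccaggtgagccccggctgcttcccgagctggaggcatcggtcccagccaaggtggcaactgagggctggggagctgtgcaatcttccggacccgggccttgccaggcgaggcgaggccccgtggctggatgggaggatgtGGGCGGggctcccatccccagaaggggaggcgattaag
Bmp5: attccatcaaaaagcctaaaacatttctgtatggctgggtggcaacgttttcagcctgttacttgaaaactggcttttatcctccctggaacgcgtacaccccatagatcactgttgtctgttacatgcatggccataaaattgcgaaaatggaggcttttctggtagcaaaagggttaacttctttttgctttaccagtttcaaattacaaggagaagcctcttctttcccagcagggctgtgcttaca
The Bmp4 window is 63.2% G or C and holds GGGCGG, the core of a GC box, starting 38 bases before the transcription start, and CACGTG, an E-box, starting 188 bases before it. The Bmp5 window is 42.8% G or C and holds neither. The corresponding window of Bmp6 lies inside the GENCODE model of the gene and is not printed; it is 68.8% G or C, with GGGCGG starting 93 bases and CACGTG 127 bases before the start. Of 32851 RefSeq windows of this length, with a median of 52.4% G or C, 32.7% hold GGGCGG and 6.02% hold CACGTG on either strand. A search of both strands for GGCGCC (in 9.59% of windows), for TGTTTAC (in 3.17%), for TATAAA (in 12.4%), for CAGCTG (in 13%) and for CTTTGAT (in 3.21%) found no match in these 3 windows. No searched motif overlapped another here. Promoter windows were found for 7 of the 10 members, and a match describes letters only.

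Ordered by mean TPM over all 15 libraries, the members ran from Bmpr1a (19.1 ± 1.88 TPM, SD, n = 15) and Bmpr2 (15.4 ± 2.35) through Bmp7 (9.1 ± 3.02), Chrd (7.55 ± 1.73), Bmp6 (6.08 ± 2.21), Nog (4.69 ± 0.936), Bmp4 (4.36 ± 2.63), Bmpr1b (4.34 ± 1.11) and Bmp5 (2.38 ± 0.926) to Bmp2 (0.677 ± 0.167). Bmpr1a and Bmpr2 transcripts were thus more abundant on average than those of any single ligand. The ranges of all neighbours in this order overlapped, although Bmpr1a exceeded Bmpr2 in 15 of 15 libraries, Bmpr2 exceeded Bmp7 in 15 and Bmp5 exceeded Bmp2 in 15. The middle of the order was not settled: Bmp7 exceeded Chrd in 11 libraries, Chrd exceeded Bmp6 in 10, Bmp6 exceeded Nog in 9, Nog exceeded Bmp4 in 9 and Bmp4 exceeded Bmpr1b in 8. By this measure Bmpr1a stood at the 52.4th percentile of genes tested over all libraries, Bmp7 at the 34.5th and Bmp5 at the 11.5th.

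Among the ligands, Bmp7 made up 40.9% ± 5.82 (SD, n = 15) of summed ligand TPM, Bmp6 27% ± 3.62, Bmp4 18.3% ± 6.97, Bmp5 10.5% ± 1.78 and Bmp2 3.34% ± 1.44. Bmp2 ranged from 0.408 to 0.937 TPM and so never reached 1 TPM. Genes were tested where 50% or more of the compared libraries reached 1 TPM, which Bmp2 did not, so that 9 of the 10 members were tested in each sex.

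**Figure D1:**
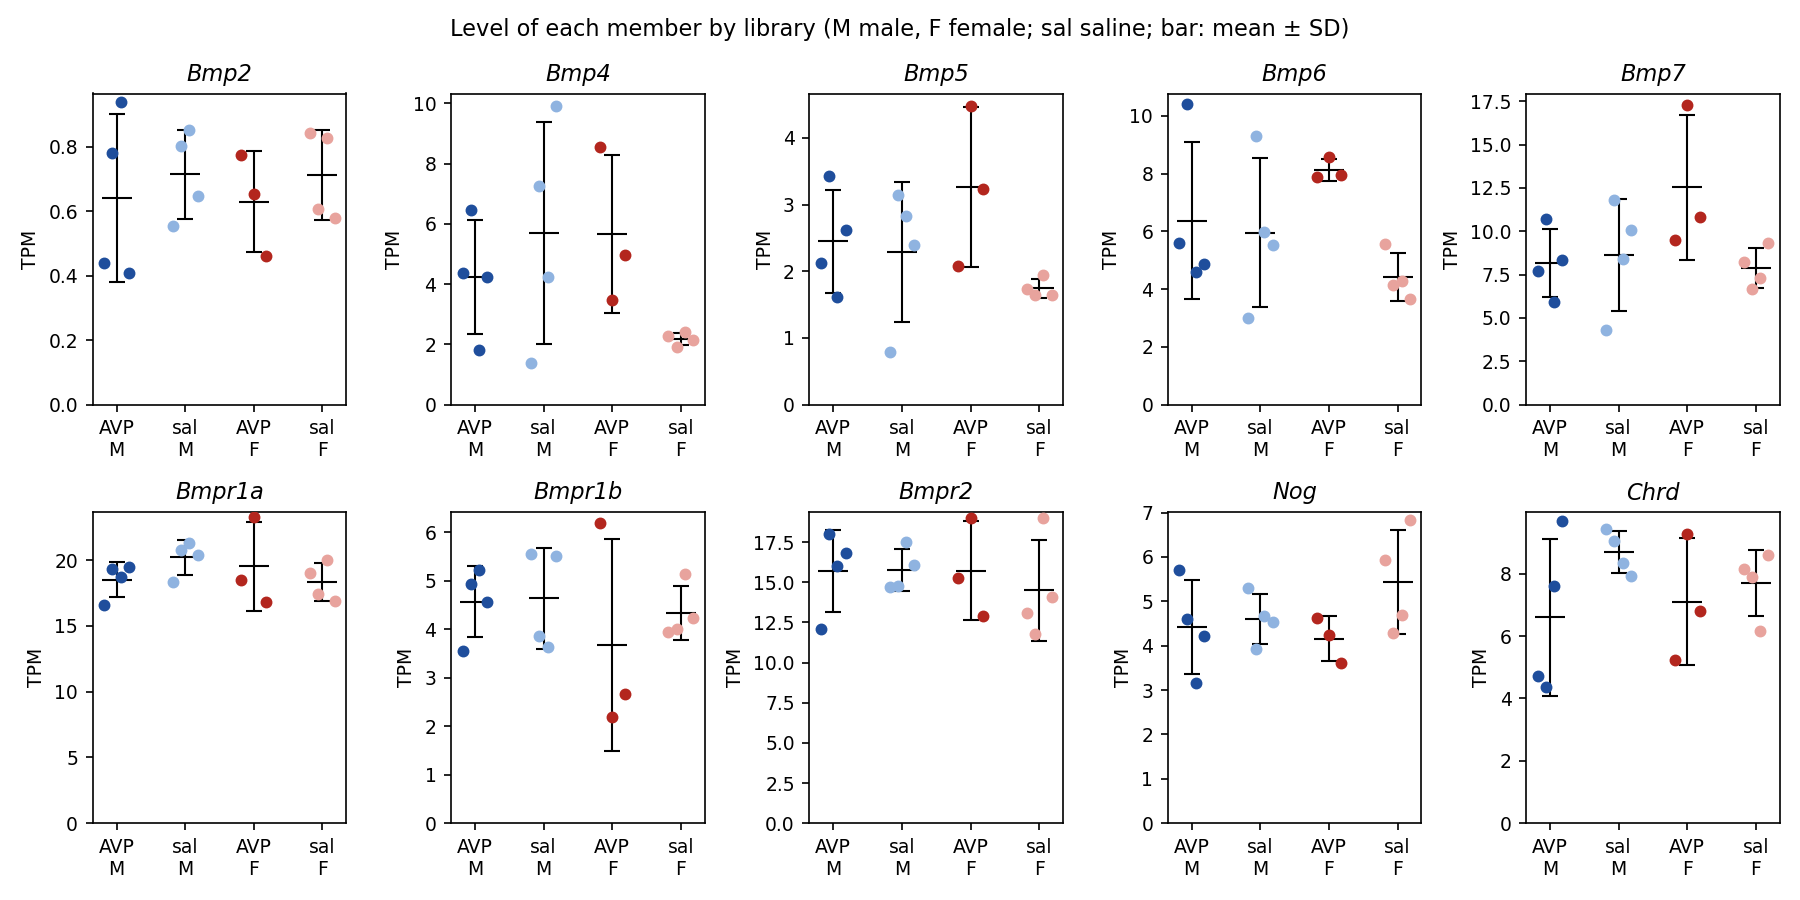
TPM of each of the 10 members in every library, with the mean and SD of each treatment by sex group (M male, F female, sal saline; points are libraries). Bmp4, Bmp5, Bmp6 and Bmp7 were higher in all 3 AVP females than in all 4 saline females, while the male groups overlapped for every member.

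In females, the comparison asks whether gestational AVP changed the members in the daughters' forebrain. All 4 tested ligands were higher with AVP, with the 3 AVP libraries above the 4 saline libraries for each, while the 3 receptors and both antagonists overlapped between groups. In bulk tissue, more cells of a type and more RNA per cell cannot be told apart. No member passed the adjusted threshold in limma's moderated test, so the values below are differences that do not hold after correction over 15132 genes. Of all genes tested, 0% had an adjusted p under 0.05, 4.51% an unadjusted p under 0.05 and 2.34% an unadjusted p under 0.05 with a higher level. Of the 9 members tested, 4 had an unadjusted p under 0.05, all higher. Groups did not overlap, with AVP higher, for 2.78% of genes and, with AVP lower, for 2.77%, against 4 and 0 of the 9 members.

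Bmp6, a ligand best known for regulating iron through hepcidin in the liver, stood at 7.88, 8.57 and 7.94 TPM in AVP females 3, 10 and 11 and at 5.57, 4.15, 4.29 and 3.66 TPM in saline females 6, 7, 14 and 15. The AVP libraries lay close together and well above the highest saline library. The difference on the log2(TPM + 0.5) scale, which understates changes of low genes, was 0.83 (SE 0.17, 95% CI 0.43 to 1.22), or 1.77-fold (limma, adjusted p = 0.998).

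Bmp4, which patterns the dorsal telencephalic midline, was at 8.56, 3.47 and 4.98 TPM in the AVP females and at 2.27, 1.91, 2.4 and 2.15 TPM in the saline females. The saline libraries were tight and the AVP libraries spread widely, AVP female 3 being the highest. The log2 difference was 1.12 (SE 0.28, 95% CI 0.48 to 1.76; limma, adjusted p = 0.999).

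Bmp7, a ligand made by the meninges and choroid plexus and needed for eye and kidney development, stood at 9.52, 17.3 and 10.8 TPM in the 3 AVP females, against 8.23, 6.7, 7.31 and 9.35 TPM in the 4 saline females. The groups were separated by a narrow margin, AVP female 3 against saline female 15, and AVP female 10 was far above the rest. The log2 difference was 0.60 (SE 0.22, 95% CI 0.09 to 1.11; limma, adjusted p = 0.999), and it was 0.35 without AVP female 10. Bmp7 is also on the study's own list of genes changed in females, which was chosen on these libraries and is not independent evidence.

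Bmp5, a close relative of Bmp6 and Bmp7 that shapes skeletal elements, measured 2.08, 4.48 and 3.23 TPM in the AVP females, against 1.74, 1.65, 1.95 and 1.64 TPM in the saline females. AVP female 3 was only slightly above the highest saline library. The log2 difference was 0.70 (SE 0.25, 95% CI 0.13 to 1.26; limma, adjusted p = 0.999). Bmp2, the low ligand, was at 0.629 ± 0.157 TPM (SD, n = 3) with AVP and 0.713 ± 0.14 TPM (n = 4) with saline.

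Exact permutation tests of Bmp4, Bmp5, Bmp6 and Bmp7 each gave a two-sided p of 0.0571; with 3 and 4 libraries no lower p is possible, so this design could not reach 0.05. Summed over the 5 ligands, the level was 30.3 ± 3.74 TPM (SD, n = 3) in AVP females and 17 ± 1.51 TPM (n = 4) in saline females, with no overlap (27.4 to 34.5 against 15 to 18.7 TPM). Across the 4 tested ligands the median log2 difference was 0.76, beside -0.05 over all genes tested. The sample numbers in the labels fall into 2 runs, and the difference was positive in both for each ligand: 1.81 and 0.75 for Bmp4, 0.23 and 0.91 for Bmp5, 0.66 and 0.97 for Bmp6, and 0.34 and 0.70 for Bmp7, the first value of each pair resting on 1 AVP library.

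The receptors and antagonists gave smaller differences in females. Bmpr1a, the widely expressed type I receptor, was at 18.5, 23.3 and 16.8 TPM in the AVP females and at 19, 17.4, 20 and 16.9 TPM in the saline females (log2 difference 0.08, 95% CI -0.25 to 0.40). Bmpr2, the type II receptor, was at 15.7 ± 3.09 TPM with AVP and 14.5 ± 3.13 TPM with saline (0.12, 95% CI -0.33 to 0.57). The groups overlapped for both genes, although AVP female 10 was above every saline library in Bmpr1a. The Bmpr1a difference was -0.06 without AVP female 10. Bmpr1b, the more restricted type I receptor, was at 6.18, 2.18 and 2.66 TPM with AVP and 3.94, 4, 5.14 and 4.23 TPM with saline, so that the AVP females lay on both sides of the saline range (-0.32, 95% CI -1.03 to 0.39). It was -0.06 without AVP female 10 and -0.72 without AVP female 3, and by run of sample numbers it was 0.58 and -0.83.

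Nog was at 4.62, 4.24 and 3.62 TPM in the AVP females and at 5.94, 4.28, 4.69 and 6.83 TPM in the saline females. AVP females 10 and 11 lay below the saline range and AVP female 3 within it (log2 difference -0.33, 95% CI -0.80 to 0.13). Chrd was at 7.11 ± 2.04 TPM with AVP and 7.7 ± 1.06 TPM with saline (-0.13, 95% CI -0.62 to 0.36). None of these 5 genes had an unadjusted p under 0.05 in limma, and their adjusted p was 0.999 each.

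**Figure D2:**
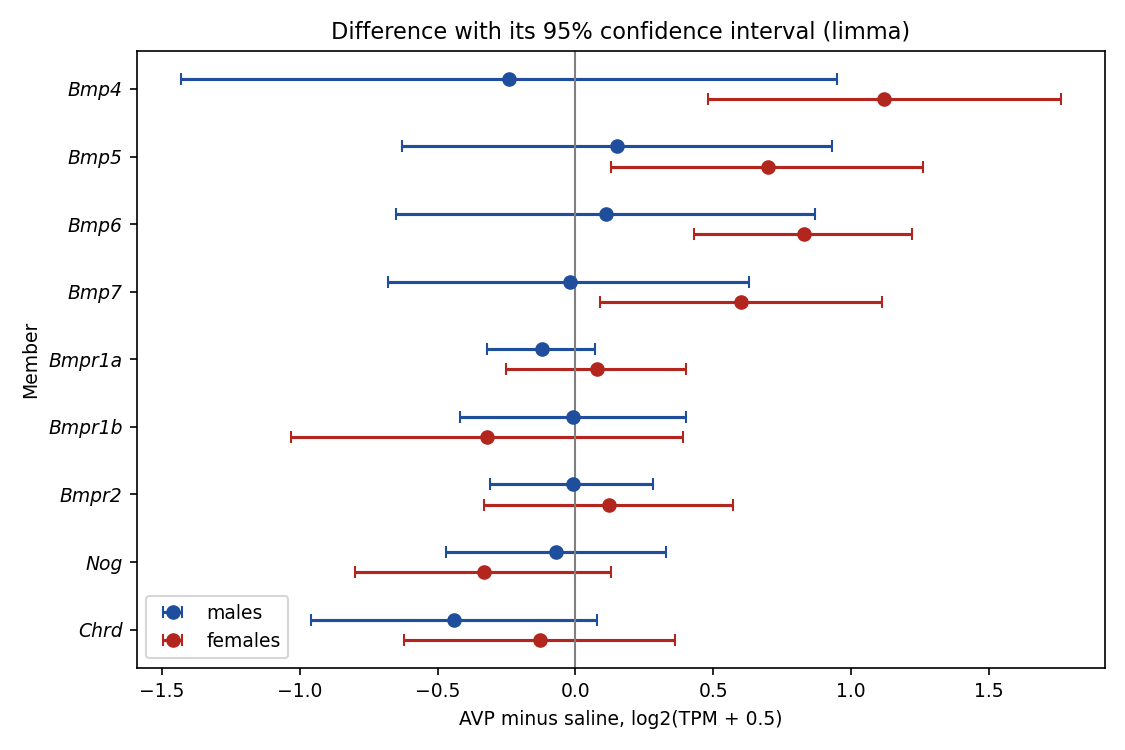
AVP minus saline on the log2(TPM + 0.5) scale for the 9 tested members in males and in females, with 95% confidence intervals from limma that are not adjusted for the number of genes tested. The intervals of Bmp4, Bmp5, Bmp6 and Bmp7 lie above 0 in females and span 0 in males.

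In males, the groups overlapped for all 9 tested members, and none had an adjusted or unadjusted p under 0.05, where 0.00655% and 13.5% of all genes tested did. Groups did not overlap for 0.733% of genes with AVP higher and 6.54% with AVP lower. The median of all genes was itself at -0.10, and scaling by median-of-ratios moved it to 0.0033, so small male differences are read against that shift.

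Male ligand levels spread widely in both groups. Bmp4 was at 4.36, 6.45, 1.83 and 4.25 TPM in AVP males 1, 2, 8 and 9 and at 1.39, 7.25, 4.25 and 9.9 TPM in saline males 4, 5, 12 and 13 (log2 difference -0.24, 95% CI -1.43 to 0.95). Bmp6 was at 5.6, 10.4, 4.58 and 4.88 TPM with AVP and 3.01, 9.3, 5.98 and 5.51 TPM with saline (0.11, 95% CI -0.65 to 0.87). The saline males held both the lowest library of these ligands, saline male 4, and one of the highest, saline male 5. Bmp5 (0.788 to 3.43 TPM over the 8 libraries) and Bmp7 (4.29 to 11.8 TPM) differed by 0.15 (95% CI -0.63 to 0.93) and -0.02 (95% CI -0.68 to 0.63). Bmp2 was at 0.641 ± 0.26 TPM with AVP and 0.714 ± 0.138 TPM with saline (n = 4 each), a log2 difference of -0.11 and of -0.06 without saline male 12.

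The sign of each tested male ligand depended on the run of sample numbers: 0.60 and -1.08 for Bmp4, 0.57 and -0.27 for Bmp5, 0.47 and -0.26 for Bmp6 and 0.32 and -0.37 for Bmp7, with 2 libraries a group in each. Without the library labelled saline male 12 the differences were -0.28, 0.27, 0.14 and -0.01. Each changed sign when 1 library was left out: Bmp4 without AVP male 8 (0.07) or saline male 13 (0.10), Bmp5 and Bmp6 without saline male 4 (-0.19 and -0.15) or AVP male 2, and Bmp7 without saline male 5 (0.15), AVP male 8 or saline male 13.

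Chrd gave the largest male difference. It was at 4.72, 4.36, 7.61 and 9.7 TPM in AVP males and at 9.44, 9.04, 8.36 and 7.94 TPM in saline males. AVP males 1 and 2 were far below the saline males and AVP male 8 just below, while AVP male 9 was above them all (log2 difference -0.44, 95% CI -0.96 to 0.08; limma, adjusted p = 0.426). It was -0.46 without saline male 12, -0.28 without AVP male 2 and -0.64 without AVP male 9. By run the difference was -0.95 and 0.07. Nog, at 4.42 ± 1.05 and 4.61 ± 0.565 TPM, differed by -0.07 (95% CI -0.47 to 0.33), and by -0.06 without saline male 12. Among the receptors, Bmpr1a was at 18.5 ± 1.33 TPM with AVP and 20.2 ± 1.34 TPM with saline, Bmpr1b at 4.56 ± 0.733 and 4.63 ± 1.04 TPM, and Bmpr2 at 15.7 ± 2.52 and 15.8 ± 1.31 TPM. Their log2 differences were -0.12, -0.01 and -0.01, and -0.10, -0.11 and 0.03 without saline male 12.

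The difference between the sexes in the AVP effect was tested by a treatment by sex term in a fit of the 15 libraries. No member passed, either adjusted or at an unadjusted p under 0.05, beside 0% and 4.14% of all genes. The interaction was 1.36 (95% CI -0.07 to 2.78) for Bmp4, 0.72 (-0.17 to 1.60) for Bmp6, 0.62 (-0.22 to 1.47) for Bmp7 and 0.55 (-0.42 to 1.51) for Bmp5, with limma p-values of 0.0604, 0.105, 0.137 and 0.244 and an adjusted p of 0.896 each. The separation of the ligands in females and not in males is therefore not shown to differ between the sexes. Without saline male 12 these values were 1.40, 0.68, 0.61 and 0.43. Leaving out 1 library moved Bmp7 from 0.38 (without AVP female 10) to 0.91 (without saline male 4) and Bmp5 from 0.32 to 0.88 with the same libraries.

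Over both sexes with sex as a term, the same libraries gave Bmp6 0.44 (95% CI -0.03 to 0.91), Bmp5 0.40 (-0.08 to 0.89), Bmp4 0.39 (-0.39 to 1.17), Bmp7 0.27 (-0.17 to 0.71) and Chrd -0.30 (-0.65 to 0.05). Bmp4 was 0.18 without AVP female 3 and 0.61 without saline male 13, Bmp5 was 0.25 without saline male 4, and Bmp7 was 0.13 without AVP female 10. None of the 9 members passed at either threshold, beside 0% of all genes adjusted and 10.4% unadjusted. Between females and males the 9 members differed by -0.33 (Bmp4) to 0.24 (Bmp7) on the log2 scale. None passed, beside 0% of genes adjusted and 1.39% unadjusted. The male side of this comparison holds the library labelled saline male 12, which carried female transcripts. Without it no member passed the adjusted threshold, while 7 of 15164 genes did. The count was also 7 without saline female 6. The smallest adjusted p in limma was 5.51e-13 without saline male 12 and 0.0329 without saline female 6. These comparisons share libraries with those above and are not separate evidence.

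The 4 varying ligands moved together from library to library, Bmp4 less closely than the others. With each library's value centred on its group mean, Pearson's r over the 15 libraries was 0.91 for Bmp5 and Bmp7, 0.79 for Bmp5 and Bmp6, 0.76 for Bmp6 and Bmp7, 0.67 for Bmp4 and Bmp6, 0.62 for Bmp4 and Bmp7 and 0.56 for Bmp4 and Bmp5. By ranks (Spearman's rho), Bmp4 correlated at 0.32 with Bmp5, 0.47 with Bmp6 and 0.46 with Bmp7. Among Bmp5, Bmp6 and Bmp7 rho was 0.70 to 0.82. By Pearson's r, Bmp2 stood outside this set, at 0.08 to 0.43 with the other ligands. Bmpr1a and Bmpr2 correlated at 0.81, and Nog with the other members at -0.35 to 0.09. The most negative pair by Pearson's r was Bmp5 and Bmpr1b, at -0.56 (rho -0.43). By ranks it was Bmp4 and Chrd, with a rho of -0.64 (r -0.49). The points share libraries and, for TPM, each library's composition, and genes are not independent replicates.

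**Figure D3:**
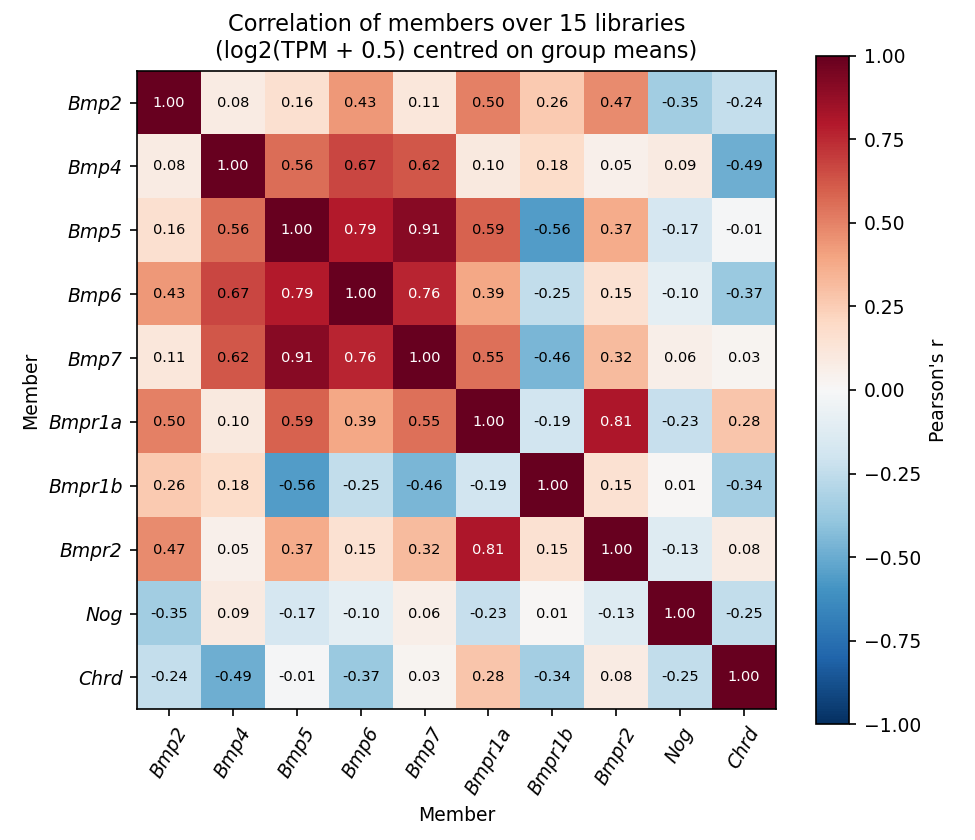
Pearson's r between all pairs of the 10 members over 15 libraries, from log2(TPM + 0.5) centred on group means. Bmp4, Bmp5, Bmp6 and Bmp7 form a block of positive values (0.56 to 0.91), and Bmpr1a with Bmpr2 another (0.81).

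The genes most alike in this pattern, out of 15077 at 1 TPM or more in at least 50% of libraries, were Ccdc3 (r = 0.95), Zic2 (0.94) and Col5a2 (0.94) for Bmp5, Fcgrt (0.94), Heph (0.93) and Abca9 (0.93) for Bmp6, Etfrf1 and Selenop (0.94 each) for Bmp7, and Trabd2b, Mill2 and Crybb1 (0.90 each) for Bmp4. For the receptors they were C330007P06Rik, Ptpn9 and Gna13 (0.94 each) for Bmpr1a, Jakmip1 (0.95), Pdgfc (0.94) and Eif1b (0.93) for Bmpr1b, and Brwd3 (0.97), Taok1 (0.96) and Zfp65 (0.94) for Bmpr2. For the antagonists they were Gdpgp1 (0.90), Pld3 (0.82) and Htatip2 (0.81) for Nog, and Pabpn1 (0.98), Mat2a (0.97) and Aup1 (0.97) for Chrd. Of the genes named here, Ccdc3, Col5a2, Abca9 and Selenop are on the study's own list for females.

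Markers of the meninges moved with the ligands. The list holds 14 genes of meningeal fibroblasts, among them Col1a1, Dcn, Foxc1 and Aldh1a2, all measured in every group and none at 0; 5 of the 14 are on the study's own list for females. In females 13 of 14 were higher with AVP, beside 36.9% of all genes tested, and 10 did not overlap, beside 2.78%, and their summed level was 297 to 440 TPM in AVP females and 190 to 279 TPM in saline females. In males 13 of 14 were higher on the log2 scale, beside 26.4% of all genes, and 0 did not overlap. By mean TPM, Col3a1 (42.9 against 43.1), Lum (6.19 against 6.57), Foxc1 (2.15 against 2.2) and Crym (59.7 against 76.6) were lower in AVP males. The other markers of the list were higher by mean TPM. The male summed level was 198 to 396 TPM with AVP and 135 to 433 TPM with saline. Centred as above, r of the list's mean with Bmp5 was 0.92, with Bmp6 0.89, with Bmp7 0.86, with Bmp4 0.77 and with Bmp2 0.15. Without the 2 libraries farthest from the median (saline male 4 and AVP male 8) these were 0.78 for Bmp5, 0.85 for Bmp6, 0.68 for Bmp7 and 0.35 for Bmp4. Saline male 4, lowest of all libraries in the list at 135 TPM, was also lowest in Bmp4, Bmp5, Bmp6 and Bmp7.

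**Figure D4:**
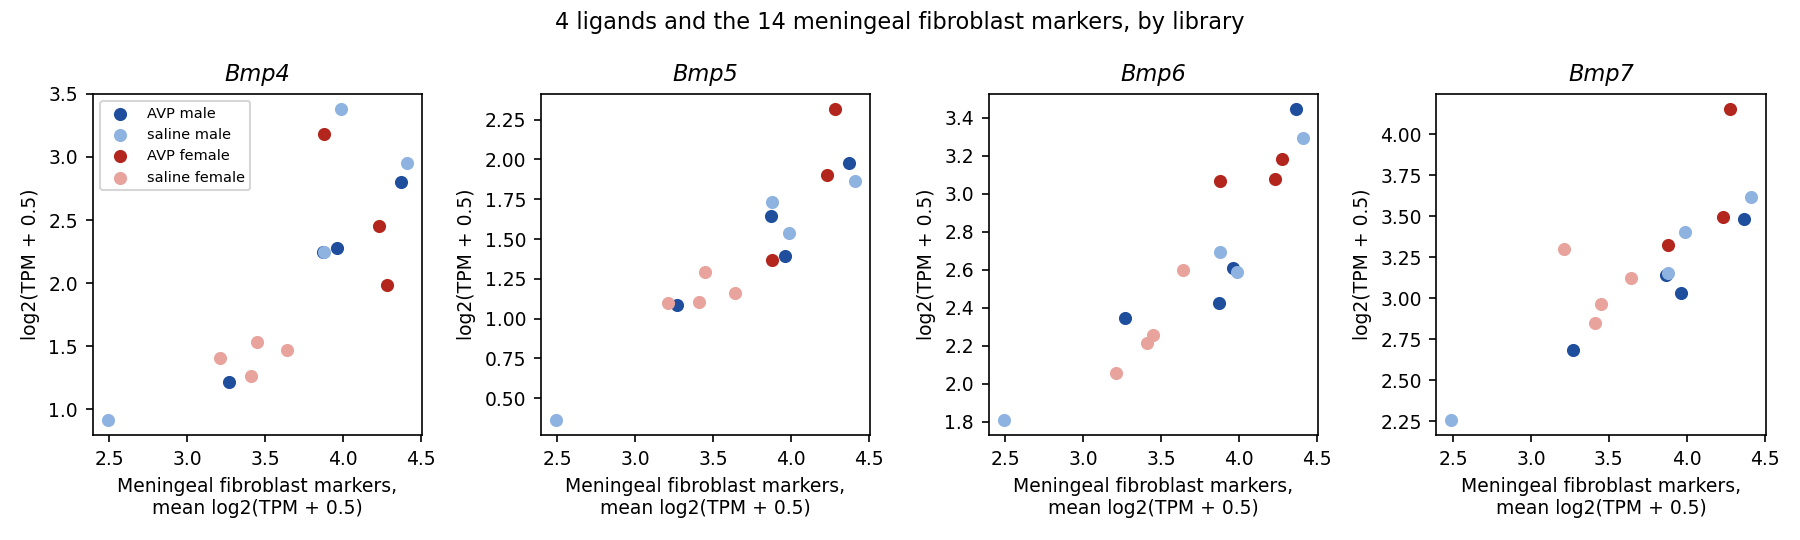
Level of Bmp4, Bmp5, Bmp6 and Bmp7 in each library against the mean of 14 meningeal fibroblast markers, both as log2(TPM + 0.5), coloured by group. Libraries low in the markers, such as saline male 4, were low in the ligands, and the AVP females lie to the upper right of the saline females.

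Border macrophages, which live in the meninges and around vessels, gave the same picture. Their marker Mrc1 is on the study's own list for females. Of 6 markers 5 were tested in females, all 5 were higher with AVP and 4 did not overlap (36.9% and 2.78% of all genes), and the sum was 48.8 to 56.3 TPM with AVP and 16.5 to 30.5 TPM with saline. In males the sum was 32.7 to 65.9 TPM with AVP and 14.5 to 58 TPM with saline. Centred as above, r of the macrophage list's mean was 0.71 with Bmp4, 0.84 with Bmp5, 0.90 with Bmp6 and 0.71 with Bmp7. Without the 2 libraries farthest from the median (saline male 4 and saline male 5) these were 0.40, 0.62, 0.80 and 0.31. Endothelial markers (207 to 220 against 127 to 194 TPM) and mural cell markers (86.4 to 92.8 against 62.1 to 79.2 TPM) were also separated in females, and oligodendrocyte precursor markers were lower (33.7 to 61.1 against 62.5 to 94.6 TPM). Choroid plexus markers, at 28 to 2296 TPM in AVP females and 8.87 to 968 TPM in saline females, overlapped in summed level. They correlated with the 4 ligands at -0.43 to -0.01. All 6 choroid plexus markers tested in females were higher with AVP (36.9% of all genes), and 1 did not overlap (2.78%). Their median log2 difference was 1.52. In males 3 of these markers were tested and 0 were higher (26.4% of all genes). Over the 15 libraries, correlation with the 4 ligands was not confined to the meningeal and macrophage lists. Centred as above, r was 0.37 to 0.74 for microglia markers, 0.41 to 0.73 for endothelial markers and 0.55 to 0.79 for mural cell markers. Without the 2 libraries farthest from each list's median, these ranges were 0.47 to 0.65, 0.02 to 0.61 and -0.03 to 0.51. The lowest mural value was that of Bmp7 and the lowest endothelial value that of Bmp4. For striatal and ventral forebrain markers r was -0.63 to -0.24, and -0.72 to -0.18 without that list's 2 farthest libraries. AVP female 10, the highest library in Bmp5 and Bmp7, was also the highest in summed markers of 3 other lists. These were cortical hem (20.8 TPM), Cajal-Retzius cells (146 TPM) and radial glia (3174 TPM). The part of all these cell types in the ligand differences was not tested.

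Transcript structure mattered for Bmp4 and Chrd. Bmp4 was spread over Bmp4-201 (34.6% of its TPM on average), Bmp4-202 (45.9%), Bmp4-204 (16.9%) and Bmp4-203 (2.56%). Bmp4-204, a retained-intron transcript of 258 nt that encodes no annotated protein, was listed at 0 in 7 libraries but reached 5.8 TPM in saline male 13 and 4.79 TPM in AVP female 3, which are the highest Bmp4 libraries. With protein-coding transcripts only, a choice made after seeing the data, Bmp4 was at 3.77, 3.47 and 3.98 TPM in AVP females and 2.27, 1.91, 1.45 and 1.99 TPM in saline females. The female groups still did not overlap (log2 difference 0.83, SE 0.19; limma, adjusted p = 0.441), while the male difference changed sign to 0.34 (SE 0.39) and the interaction was 0.49.

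**Figure D5:**
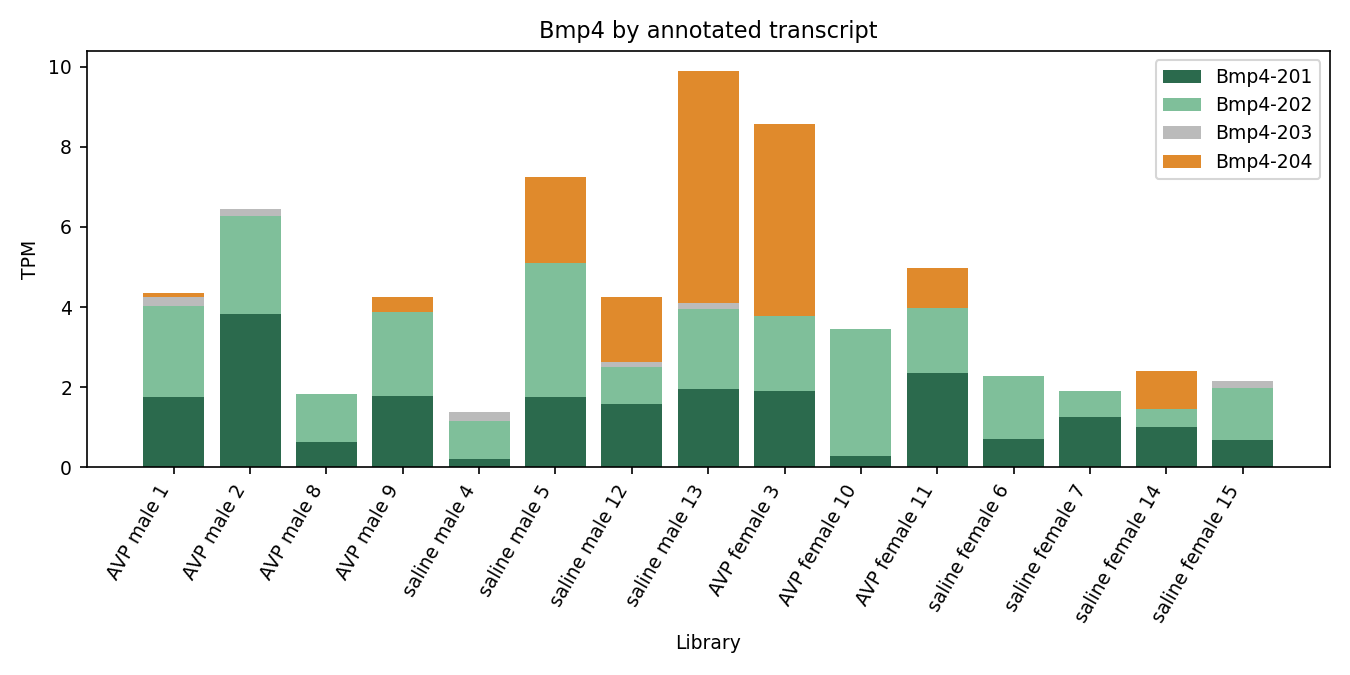
Bmp4 TPM in each library, stacked by annotated transcript (201 and 202 protein-coding, 203 and 204 retained intron). The short transcript 204 makes up 58.5% of Bmp4 in saline male 13 and 55.9% in AVP female 3 and is at 0 in 7 libraries.

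Chrd was spread over Chrd-201 (66.7%), the nonsense-mediated decay transcript Chrd-204 (22.9%) and the retained-intron transcript Chrd-203 (10.5%), and its male difference was -0.20 with protein-coding transcripts only. The other members rested mostly on 1 transcript, from 81.9% for Bmpr1b-201 to 100% for Bmp2-201, Bmp7-201 and Nog-201.

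The rest of the pathway was described from 56 further genes by role, of which 40 were tested and 0 had an adjusted p under 0.05 in any comparison. In females 2 of 40 had an unadjusted p under 0.05, both higher, beside 4.51% of all genes, a share near the background. In males 8 of 40 did, all lower, beside 13.5% of all genes in either direction. Most genes were lower in AVP males: 26.4% of all genes were higher, and 13 of these 40. The median log2 difference of the 40 was 0.01 in females and -0.11 in males, beside -0.05 and -0.10 over all genes. The female 2 were Fstl1, a secreted follistatin-like protein, at 64.4 ± 4.24 TPM with AVP and 45.8 ± 6.56 TPM with saline (log2 difference 0.50), and Smad6, an inhibitor of BMP Smads, at 1.99 ± 0.199 and 1.17 ± 0.344 TPM (0.60), Smad6 being named after its values were seen. The male 8 were Acvrl1, Rgma, Eng, Smad7, Smurf2, Tob1, Ski and Bmp1, with log2 differences of -0.49 (Smad7) to -0.18 (Ski); all but Rgma, Smurf2, Ski and Bmp1 were named after their values were seen.

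The 4 Id genes, readouts of BMP signalling, overlapped between treatments in both sexes. Id2, the most abundant target, was at 545 ± 53.3 TPM in AVP females and 465 ± 40.7 TPM in saline females (log2 difference 0.23; limma, adjusted p = 0.999), and at 464 ± 61.5 and 478 ± 35.5 TPM in the males. Id1, Id3 and Id4 differed by 0.25, 0.21 and -0.20 in females and by 0.09, -0.12 and 0.32 in males. Of the other targets, named after their values were seen, the homeobox gene Msx1 was at 6.82 ± 2.65 TPM in AVP females and 3.38 ± 1.64 TPM in saline females, with overlap (log2 difference 0.97; limma, adjusted p = 0.999). Its relative Msx2, too low to be tested, was at 0.2 to 0.34 TPM in AVP females and 0 to 0.0992 TPM in saline females, without overlap. Among genes tested in females, 2.78% did not overlap with AVP higher. The remaining targets, Hey1 and Atoh8, differed by -0.19 and 0.002 in females, with overlap. The transducers Smad1, Smad5 and Smad4 differed by -0.08, 0.09 and -0.06 in females and by -0.16, -0.11 and -0.15 in males. Of the other abundant pathway genes, the co-receptors Neo1, Rgma and Rgmb were at 86.1, 57.5 and 41.7 TPM on average, the inhibitors Ski, Smurf1 and Smurf2 at 61, 28.7 and 28.5 TPM, the modulators Twsg1 and Nbl1 at 26.7 and 19.6 TPM, and the chordin protease Bmp1 at 28.8 TPM. Of 10 other ligands 3 were tested, Gdf11, Bmp3 and Gdf5, at 7.46, 2.54 and 2.47 TPM on average.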

How the data were processed

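The 15 libraries were prepared with a stranded mRNA kit from E18 dorsal forebrain. Per the study's methods and the submitters' processing notes, the authors trimmed reads with Trim Galore 0.4.1 and quantified transcripts with kallisto 0.43.1 against GENCODE M16 (GRCm38). In the deposited table each transcript has 1 value in each library; no unit is named, but all columns add up to an equal total, so the values were read as TPM made by the authors. TPM hold no counts, so depth and counting precision are unknown and no count model was used. Sleuth 0.29.0, the authors' test, was not run here.

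GENCODE M21, on the same assembly, assigned the 133849 transcripts to 53337 genes, and TPM were added up per gene; 404 transcripts, holding 0.154% to 0.199% of a library, had no gene there. Where 50% or more of the compared libraries reached 1 TPM, log2(TPM + 0.5) was fitted by limma 3.58.1 under R 4.3.3 (mean-variance trend, two-sided), and p-values were adjusted by Benjamini-Hochberg over all genes tested (threshold 0.05). The sexes were fitted separately with treatment as the only term, as in the study. The fits were tested on simulated data. Single members were also tested by exact two-sided permutation of libraries (smallest p 0.0286 in males, 0.0571 in females). Groups and sample numbers come from the labels; the numbers are unique and pair no libraries.

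All members were named. Other pathway genes were named if they passed the adjusted threshold, were among the 3 of their list with the highest mean TPM, or were Id1 to Id4, Smad1, Smad5 or Smad4; the genes most alike were the 3 with the highest r, of which 1 for Bmp7 is not reported here. Members, lists and tests were chosen with earlier results of these data known. Alternatives were other pseudocounts, filters and scalings, limma without the trend, the run of sample numbers as a covariate, a Wald z test modelled on Sleuth, a joint fit of the 15 libraries, leaving out each library and, added after seeing the data, protein-coding transcripts only. Also examined were the marker lists of microglia, Cajal-Retzius cells, cortical hem, radial glia, intermediate progenitors, interneurons, striatum and red blood cells. Each of these overlapped in summed level between treatments in both sexes.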

Additional observations from a re-analysis of the deposited data

How the results depend on the processing

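Of the alternative values of the 9 tested members, 927 kept their direction, 48 changed sign, and none crossed the adjusted threshold. For Bmp2, low and not tested, 22 of 107 changed sign, with 0.02 in males under quantile normalization and, leaving out 1 library, -0.20 to 0.01 in females, -0.10 to 0.12 in the interaction and -0.04 to 0.05 between the sexes. The female differences of Bmp4, Bmp5, Bmp6 and Bmp7 stayed positive throughout, at 0.80 to 1.40, 0.47 to 0.94, 0.75 to 0.93 and 0.35 to 0.77 when 1 library was left out; the lowest adjusted p, 0.0821 for Bmp4 and Bmp6, came with the Wald z test. In males, leaving out 1 library gave Bmp4 -0.72 to 0.10, Bmp5 -0.19 to 0.31, Bmp6 -0.15 to 0.34, Bmp7 -0.31 to 0.15, Bmpr1b -0.11 to 0.10, Bmpr2 -0.08 to 0.10 and Nog -0.19 to 0.06. In females it gave Bmpr1a -0.06 to 0.18, Bmpr2 -0.02 to 0.25 and Chrd -0.33 to 0.05, and in the interaction Bmpr2 -0.01 to 0.27. Over both sexes it gave Bmpr1a -0.10 to 0.0019 and Bmpr2 -0.02 to 0.11, and between the sexes Bmp5 -0.10 to 0.15, Bmp6 -0.09 to 0.16 and Chrd -0.13 to 0.04. With quantile normalization the male differences turned positive for Bmp7 (0.11), Bmpr1a (0.01), Bmpr1b (0.14), Bmpr2 (0.13) and Nog (0.08), and with median-of-ratios scaling for Bmp7 (0.08), Bmpr1b (0.09), Bmpr2 (0.09) and Nog (0.03); both scalings move the male median of all genes. Bmpr1a over both sexes became 0.06 and 0.04 under the same scalings. With protein-coding transcripts only, male Bmp4 became 0.34.

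The count of all genes called was 1 in males and 0 in the other comparisons. In males it was 0 with a pseudocount of 1, with at least 5 TPM in every library, with the run of sample numbers as a covariate, in 1 fit of all 15 libraries and with protein-coding transcripts only, 2 without limma's trend, 108 with the Wald z test and 0 to 6 when 1 library was left out. With the Wald z test it was 16 in females, 1 in the interaction, 2 over both sexes and 2 between the sexes; leaving out 1 library gave 0 to 6, 0 to 1, 0 to 1 and 0 to 7, the last reaching 7 without saline male 12 or saline female 6 and 6 without saline female 7, 14 or 15. The cause was not tested. No paired analysis was possible because the sample numbers are unique and the groups share none.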
